A study of Mus musculus with 9 samples.

Results

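The Zfp36 family of AU-rich element binding proteins was followed over the first hour of lipopolysaccharide (LPS) in IMM, an immortalized mouse macrophage cell line. Its members were taken by gene symbol from the table of counts per gene, which gave Zfp36, Zfp36l1 and Zfp36l2, 3 of the 55450 genes listed. The cells had the genotype WT and came from 1 line. They stood at 0 min (treatment given as none, the control), or at 30 or 60 min of LPS (Enzo Life Sciences) at 100 ng/mL in growth medium, and each of these times had 3 libraries. LPS comes from the outer membrane of Gram-negative bacteria, and its receptor on macrophages is Tlr4. The design text calls the 3 libraries of a time biological replicates. That rests on the labels alone, so p-values measure the spread between these libraries. There were no libraries without LPS at 30 or 60 min, so LPS, handling and time cannot be told apart.

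Proteins of this family bind AU-rich elements, stretches of A and U in the 3′ untranslated region (3′ UTR) of short-lived mRNAs, with a pair of CCCH zinc fingers. The bound protein recruits the CCR4-NOT complex, which shortens the poly(A) tail, and then decapping enzymes and exonucleases, so that the mRNA is degraded. Zfp36, also called tristetraprolin or TTP, is best known in macrophages for limiting Tnf mRNA, and it binds AU-rich elements of its own mRNA as well. Zfp36l1 and Zfp36l2 have the same kind of RNA-binding domain and are known mainly for roles in development and in lymphocytes. Phosphorylation of TTP by Mapkapk2 (MK2), a kinase downstream of p38, lowers its activity and protects it from degradation. An RNA measurement does not show this step.

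The RNA-binding domain is shown for the 3 members because it is what makes them a family. Each line is the coding strand, 5′ to 3′, from the first zinc-binding residue of the first finger to the last of the second, with the 8 codons for the zinc-binding cysteines and histidines in capitals.
Zfp36: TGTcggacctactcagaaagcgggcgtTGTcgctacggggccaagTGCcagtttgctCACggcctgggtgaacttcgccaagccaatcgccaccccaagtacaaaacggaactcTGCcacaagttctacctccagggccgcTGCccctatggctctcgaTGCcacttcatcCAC
Zfp36l1: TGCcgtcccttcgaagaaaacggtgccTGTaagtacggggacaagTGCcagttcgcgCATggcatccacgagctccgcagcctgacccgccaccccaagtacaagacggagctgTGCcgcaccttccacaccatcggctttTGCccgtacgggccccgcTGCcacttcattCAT
Zfp36l2: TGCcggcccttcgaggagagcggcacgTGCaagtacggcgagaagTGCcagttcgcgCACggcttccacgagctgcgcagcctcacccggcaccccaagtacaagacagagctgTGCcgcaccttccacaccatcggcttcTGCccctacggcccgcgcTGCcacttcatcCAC
The stretches lie in exon 2 of 2 of each gene, on the minus strand of GRCm38 (mm10), as annotated by GENCODE M21. That of Zfp36 lies at chr7:28378044-28378217, that of Zfp36l1 at chr12:80110075-80110248 and that of Zfp36l2 at chr17:84186554-84186727. Each holds 174 bases for 58 residues, which are residues 101 to 158 of 319 in Zfp36, 120 to 177 of 338 in Zfp36l1 and 161 to 218 of 484 in Zfp36l2. Zfp36l1 and Zfp36l2 were the closest pair, with 54 of 58 residues (93.1%) and 152 of 174 bases (87.4%) identical. Zfp36 shared 39 of 58 residues (67.2%) with Zfp36l1 and 40 of 58 (69.0%) with Zfp36l2.

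The mRNAs of the family carry the element that the family binds. The nonamer TTATTTATT, the core site of these zinc fingers written as DNA, was looked for on the transcript strand only, without overlaps. Each member's 3′ UTR held 1 copy, and 8.77% of 11214 other protein-coding genes tested with an annotated 3′ UTR held at least 1. The 30 bases around the nonamers, which are in capitals, stand here beside the site of Tnf, the target for which TTP is best known.
Zfp36: ttatgacgactTTATTTATTgtattaagat
Zfp36l1: aaactgttggaTTATTTATTttagaaattc
Zfp36l2: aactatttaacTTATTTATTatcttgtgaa
Tnf: atttaTTATTTATTTATTATTTATTTATTt
These sites lie in the last exon, on the minus strand, at chr7:28376951-28376980, chr12:80108167-80108196, chr17:84184914-84184943 and chr17:35199676-35199705. They begin 578, 1393, 810 and 440 bases after the stop codon, in 3′ UTRs of 774, 1835, 1822 and 764 bases. The 3′ UTR of Tnf held 3 nonamers that do not overlap, and the printed window holds 4 that partly do. The shorter heptamer TATTTAT, which lies inside the nonamer, occurred 3 times in each member and 6 times in Tnf, and the pentamer ATTTA 3, 9, 5 and 8 times in the same order. A match is a description of the sequence and not evidence of binding.

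Library totals ran from 26867428 to 30402308 counts. After a filter on low counts, 14246 genes were tested, 11313 of them protein-coding, and the 3 members passed it. Markers of the labelled cell type were abundant: 8 macrophage genes summed to between 1810 and 2040 CPM in a library (counts put on 1 scale by library size), here by plain totals. Markers of other cell types, over the same libraries, summed to 13.7 to 18.6 CPM for dendritic cells (6 genes) and to 5.62 to 7.07 CPM for neutrophils (7 genes, 2 of them at 0). T cells (6 genes, 2 at 0) had 2.93 to 3.97 CPM, endothelial cells (4 genes) 1.23 to 2.2 CPM, and B cells (5 genes, 2 at 0) 0.197 to 0.593 CPM. Fibroblast (5 genes, 3 at 0) and epithelial (4 genes, 1 at 0) markers stayed at or below 0.21 CPM, and the 4 mast cell genes were at 0. In bulk RNA, fewer cells that express a gene and less of its RNA per cell cannot be told apart. Libraries hold total RNA with ribosomal RNA removed, so unspliced RNA counts beside mature mRNA.

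Zfp36 rose 9.86-fold within 30 min and had fallen back in part by 60 min, while Zfp36l1 and Zfp36l2 differed between times by at most 1.18-fold. All 3 were expressed before LPS. Levels below are CPM with library totals scaled by edgeR's TMM factors.

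Zfp36 (ENSMUSG00000044786.6, chr7:28376784-28380253), the TTP gene, stood at 50.9, 55.5 and 45.7 CPM in replicates 1, 2 and 3 at 0 min. At 30 min it stood at 550.2, 474.6 and 473.8 CPM, and at 60 min at 249.5, 356.8 and 334.5 CPM. The 3 times did not overlap: every 30 min library lay above every 60 min library, and every 60 min library above every 0 min library. The 60 min libraries were the most spread, with replicate 1 the lowest. The means were 50.7 ± 4.94, 499.5 ± 43.9 and 313.6 ± 56.6 CPM (SD, n = 3 each). From 0 to 30 min the log2 change was 3.30 ± 0.118 (SE), a 9.86-fold rise (edgeR quasi-likelihood test, Benjamini-Hochberg adjusted p = 1.85e-10). Ranked by log2 rise among the 14246 genes tested, it came at place 36. At 60 min it was still 6.19-fold above 0 min (log2 change 2.63 ± 0.116, adjusted p = 5.43e-10), at place 120. Between 30 and 60 min it fell by 0.67 on the log2 scale (SE 0.104, adjusted p = 0.000414), to a level 1.59-fold lower.

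Zfp36l1 (ENSMUSG00000021127.7, chr12:80107754-80113013) had the smallest counts of the family once LPS was given. It stood at 67.2, 72.8 and 62.1 CPM at 0 min, at 81.6, 84.1 and 73.2 CPM at 30 min, and at 70.9, 78.4 and 78.0 CPM at 60 min. The highest 0 min library (72.8 CPM) and the lowest 30 min library (73.2 CPM) nearly met, and the 60 min libraries overlapped those of both other times. The log2 change at 30 min was 0.24 ± 0.063 (SE), or 1.18-fold, and passed the test (edgeR adjusted p = 0.0283). That call rested on single libraries: it was lost without 0 min replicate 1 (adjusted p = 0.086), 0 min replicate 3 (0.101), 30 min replicate 1 (0.0895) or 30 min replicate 2 (0.119). At 60 min the log2 change was 0.17 ± 0.063 and missed the threshold (adjusted p = 0.0644, 95% interval 0.04 to 0.31). DESeq2 put it past the threshold (adjusted p = 0.0456), as did a fit with no filter on low counts (0.00258) and leaving out 0 min replicate 2 (0.0199), 30 min replicate 3 (0.0436) or 60 min replicate 1 (0.0435). From 30 to 60 min the log2 change was -0.07 with a 95% interval of -0.21 to 0.06 (adjusted p = 0.51).

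Zfp36l2 (ENSMUSG00000045817.8, chr17:84183931-84187947) was the most abundant member before LPS. It stood at 268.9, 284.7 and 264.7 CPM at 0 min, at 295.1, 290.7 and 293.5 CPM at 30 min, and at 291.7, 305.3 and 286.9 CPM at 60 min. With these TMM-scaled levels, the highest 0 min library (284.7 CPM) and the lowest library with LPS (286.9 CPM) lay close together. The 30 and 60 min libraries overlapped. The log2 change at 30 min was 0.10 ± 0.0367 (SE), or 1.07-fold, and missed the threshold (edgeR adjusted p = 0.108, 95% interval 0.03 to 0.18). It passed only without 0 min replicate 2 (adjusted p = 0.0401). At 60 min the log2 change was 0.11 ± 0.0367, or 1.08-fold, and passed narrowly (adjusted p = 0.0393). It was lost without 0 min replicate 1 (0.12), 0 min replicate 3 (0.134), 30 min replicate 2 (0.0556), 30 min replicate 3 (0.0537), 60 min replicate 1 (0.0861) or 60 min replicate 2 (0.171). Scaled by total counts alone, the change at 60 min was 0.04 (adjusted p = 0.39). Between 30 and 60 min it was 0.01 with a 95% interval of -0.07 to 0.09 (adjusted p = 0.927), and its sign turned with that scaling (-0.03) and without 60 min replicate 2 (-0.02).

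**Figure D1:**
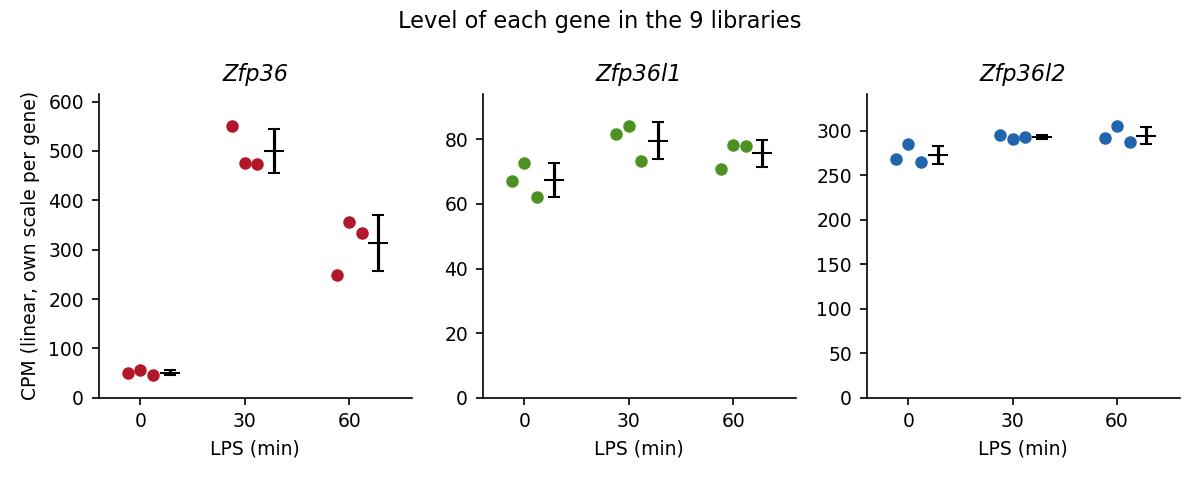
Level of each member in CPM (vertical axis, linear from 0, own scale per gene) against minutes of LPS (horizontal axis). Coloured points are the 3 libraries of a time in replicate order, and the bar beside them is the mean ± SD (n = 3). Zfp36 goes from 45.7 to 55.5 CPM at 0 min to at least 473.8 CPM at 30 min, while the points of the other members lie close together at all times.

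The counts of calls are read against the rest of the genome. At 30 min 4.84% of the genes tested were called higher and 3.35% lower than at 0 min, and Zfp36 and Zfp36l1 were among the higher ones. At 60 min 13.3% were higher and 11.7% lower than at 0 min, and Zfp36 and Zfp36l2 were called higher. From 30 to 60 min 8.87% were called higher and 7.65% lower, and Zfp36 was the member called lower. The median log2 change over all genes tested was 0.01, 0.00 and 0.00 in these comparisons. The comparisons share libraries (0 min in the first and second, 30 or 60 min in the others), so they are not independent of each other. In the authors' deposited table of their own DESeq2 comparisons, Zfp36 had log2 fold changes of 3.30 at 30 min and 2.63 at 60 min. There Zfp36l1 had 0.24 (adjusted p = 0.00862) and 0.17 (adjusted p = 0.052), and Zfp36l2 had 0.10 (adjusted p = 0.122) and 0.11 (adjusted p = 0.0556) in the authors' deposited table.

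**Figure D2:**
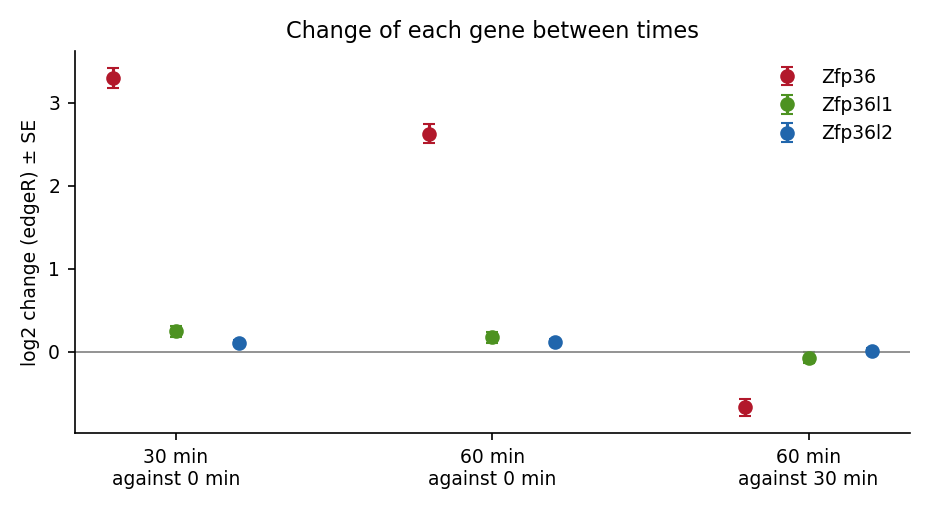
Log2 change of each member in the 3 comparisons, from 1 edgeR fit over 9 libraries; points are the estimates and bars ± 1 SE. Zfp36 stands at 3.30 and 2.63 against 0 min and at -0.67 from 30 to 60 min, and the estimates for Zfp36l1 and Zfp36l2 lie between -0.07 and 0.24.

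The make-up of the family changed with these levels. Levels of different genes were compared per kilobase (kb) of annotated exon, 3470 bases for Zfp36, 2990 for Zfp36l1 and 3530 for Zfp36l2. At 0 min the order was Zfp36l2 (77.3 CPM per kb), Zfp36l1 (22.5) and Zfp36 (14.6), and no libraries of neighbouring genes in this order overlapped. At 30 min Zfp36 came first with 144 CPM per kb (136.5 to 158.5), Zfp36l2 stood at 83.0 and Zfp36l1 at 26.6, again without overlap. At 60 min Zfp36 (71.9 to 103 CPM per kb) and Zfp36l2 (81.3 to 86.5) overlapped and were not told apart, and Zfp36l1 stayed lowest at 25.3. The order at 60 min depends on the length used. A second annotated Zfp36 transcript keeps the intron, and with the longest spliced transcript of 2790 bases Zfp36 lay at 89.4 to 128 CPM per kb, above Zfp36l2. Among 11313 protein-coding genes ranked by CPM per kb, Zfp36 went from place 2989 at 0 min to 221 at 30 min and 384 at 60 min. Zfp36l1 stood at places 1920, 1625 and 1765, and Zfp36l2 at 433, 413 and 431.

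Zfp36 made up 12.8% ± 0.598 of the summed level of the family per kb at 0 min, 56.7% ± 1.89 at 30 min and 45.1% ± 4.14 at 60 min (SD, n = 3). Its share ran from 12.1% to 13.2%, from 55.3% to 58.8% and from 40.3% to 47.7% in the libraries of the 3 times, with no overlap. The share of Zfp36l2 was 67.6% ± 1.13, 32.8% ± 1.58 and 42.1% ± 3.66, and that of Zfp36l1 was 19.7% ± 0.537, 10.5% ± 0.752 and 12.8% ± 0.573. Their shares fell while their own levels did not, since the summed level of the family went from 114.4 ± 6.1 CPM per kb to 253.6 ± 13.8 and then 199.2 ± 19.

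**Figure D3:**
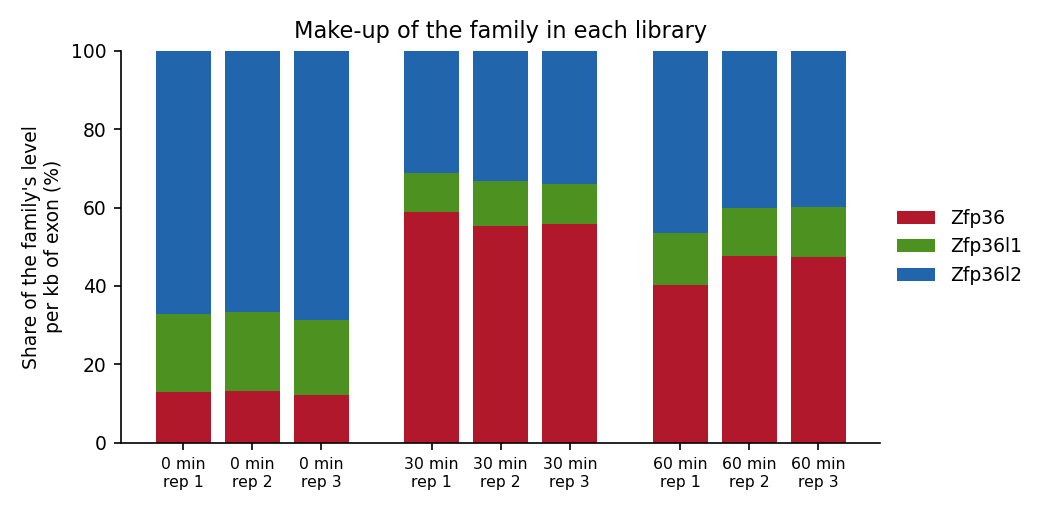
Share of each member in the summed level of the family (vertical axis, percent of CPM per kb of exon) in each of the 9 libraries. Zfp36l2 takes 66.7% to 68.8% of the bar at 0 min, and Zfp36 takes 55.3% to 58.8% at 30 min.

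The ratio of 2 members within a library does not depend on how libraries are scaled, so it tests whether members took different courses. The ratio of Zfp36 to Zfp36l2 (per kb) had a mean of 0.189 at 0 min (0.175 to 0.198), 1.73 at 30 min (1.64 to 1.9) and 1.08 at 60 min (0.87 to 1.19). The ratio of Zfp36 to Zfp36l1 had means of 0.648, 5.42 and 3.55. Both differed between times by an exact permutation test over the 1680 arrangements of 9 libraries (p = 0.00357, adjusted over 3 pairs p = 0.00535), the smallest p it can give. The ratio of Zfp36l1 to Zfp36l2 had means of 0.291, 0.321 and 0.304, and no difference between times passed the same exact test (p = 0.243, adjusted p = 0.243). Its mean log2 ratio at 30 min was 0.14 above that at 0 min, with SDs of 0.06 at 0 min and 0.11 at 30 min.

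Genes around the members changed less than Zfp36 or had few counts. Plekhg2, the nearest annotated gene on one side at 4185 bases, rose by 0.33 (edgeR adjusted p = 0.0316) and 0.51 (adjusted p = 0.000529) on the log2 scale at 30 and 60 min. Med29, a Mediator subunit gene 5893 bases away on the other side, had 0.11 (adjusted p = 0.321) and 0.18 (adjusted p = 0.0461). Gm44710, annotated antisense to Zfp36, had 17, 26 and 29 counts summed over the 3 libraries of each time and was not called at either time (adjusted p = 0.53 and 0.311). The genes that overlap Zfp36l1 and Zfp36l2, Gm26669 and AC132455.1, had at most 5 counts at any time. The kit marks strand, but the strand setting of the counting is not given in the sources used here, so reads of overlapping genes cannot be assigned with certainty. Of the other neighbours, 1300014J16Rik beside Zfp36l1 was not called, Thada beside Zfp36l2 had log2 changes of 0.01 at 30 and 60 min, and Gm47752 and AC132455.2 had 3 counts or fewer at each time. The family's relatives Zfp36l3, with 8 counts over 9 libraries, and the pseudogene Zfp36l1-ps, with 0, could take few reads from the members.

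The genes whose course was most like that of a member were found by Pearson correlation of log2 CPM over the 9 libraries, among 9380 protein-coding genes with a mean of at least 5 CPM. The 9 points fall into 3 times and share library scaling, so r is a description. For Zfp36 the leading genes were Osm (r = 0.994), a cytokine of the interleukin-6 family, Dusp1 (0.984), a phosphatase that inactivates p38, Ppp1r15a (0.979), a regulatory subunit that directs phosphatase to a translation factor, Fos (0.979), a subunit of AP-1, and Btg2 (0.978), an adaptor that binds a CCR4-NOT deadenylase. Osm came closest in size, with log2 changes of 3.50 at 30 min, 2.96 at 60 min and -0.54 between them (edgeR adjusted p = 0.0018 for the last). Fos rose by 4.75 and then fell further than Zfp36, by 1.79 (adjusted p = 8.41e-08). The changes between 30 and 60 min did not pass for Dusp1 (-0.15, adjusted p = 0.26), Btg2 (-0.18, adjusted p = 0.134) and Ppp1r15a (-0.03, adjusted p = 0.876). The library with the lowest Zfp36 at 60 min, replicate 1, was also the lowest of its time for Osm, Fos, Dusp1 and Ppp1r15a, and 30 min replicate 1 was the highest of its time for Zfp36 and all 5 genes.

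For Zfp36l1 the leading genes were Lin52 (r = 0.966), Gm20390 (0.941), Med21 (0.878), the chemokine receptor gene Cxcr4 (0.874) and the actin nucleation gene Arpc3 (0.864), and their log2 changes at 30 min lay between 0.08 and 0.34. For Zfp36l2 they were the deacetylase gene Sirt1 (r = 0.971), Isy1 (0.944), Tbl1xr1 (0.935), Acvr2a (0.934) and Dtl (0.934), with log2 changes of 0.05 to 0.20 at 30 min. These changes were small. Against 0 min Gm20390, Med21, Cxcr4 and Isy1 were called higher by edgeR at both times (adjusted p 0.00432 to 0.0451). Acvr2a and Dtl were called higher at 60 min only (adjusted p = 0.0134 and 0.00794), and the other genes named here were not called. By Spearman's rho, with genes tied at place 5 counted in, Osm and Fos stayed among the leading genes for Zfp36, the first 4 of the 5 for Zfp36l1, and Sirt1 for Zfp36l2. With ties broken by r, 1, 3 and 1 of the 5 genes stayed.

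The genes that carry out or regulate decay by the family were described by lists of their roles. Changes below are log2 changes against 0 min from the same edgeR fit, and called means an adjusted p under 0.05. A list of 17 genes held CCR4-NOT and other deadenylases, with the poly(A)-binding protein genes Pabpc1 and Pabpc4 beside them. Of these 17 genes, 0 were called at 30 min by edgeR, 0 had an unadjusted p under 0.05, and DESeq2 and limma-voom called 0. Over all genes edgeR called 4.84% higher and 3.35% lower at that time. Cnot1, the scaffold of the complex to which TTP binds, went from 462 to 472 and 465 CPM (0.03 and 0.01, adjusted p = 0.682 and 0.895). At 60 min 2 were called higher, Cnot7 (0.22) and Pan2 (0.17), and 2 lower, Cnot10 (-0.19) and Cnot4 (-0.17), with a list median of -0.02 beside 0.00 over all genes. That is 11.8% of the list in each direction, near the 13.3% higher and 11.7% lower over all genes. Of these, Cnot10 (adjusted p = 0.00207) held under the 17 alternatives, while 4 alternatives ended the call of Cnot7, 4 that of Cnot4 and 7 that of Pan2 (adjusted p up to 0.195). Single libraries were enough: replicates 1 and 3 of 0 min and 2 of 60 min for Cnot7, replicates 1 and 2 of 0 min and of 60 min for Cnot4, and replicates 2 and 3 of 0 min and 1 and 3 of 60 min for Pan2. Between 30 and 60 min Pan2 alone was called (0.17, adjusted p = 0.0387), which is 5.88% of the list higher beside 8.87% of all genes. That call was ended by 8 alternatives, 5 of them by leaving out 1 library of 30 min or replicate 1 or 3 of 60 min (adjusted p up to 0.161).

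Of 16 tested genes for decapping, 5′ to 3′ decay and the exosome, Skiv2l, a helicase of the exosome's cytoplasmic cofactor, was called at 30 min (0.19, adjusted p = 0.0207). Scaling by total counts alone ended this call, and so did leaving out replicate 2 of 0 min, replicate 2 of 30 min or replicate 3 of 30 min (adjusted p 0.054 to 0.0939). Exosc10, a nuclear exosome nuclease, was called from 30 to 60 min (0.18, adjusted p = 0.00348), and its call at 60 min against 0 min (0.12, adjusted p = 0.0368) was ended by 9 alternatives, among them leaving out replicate 2 or 3 of 0 min or 1 or 3 of 60 min (adjusted p up to 0.388). The list medians were 0.00 and 0.02 at 30 and 60 min, and 1 of 16 genes (6.25%) was called higher at each time, beside 4.84% and 13.3% of all genes. Of 4 cap-bound translation repressors, the cap-binding protein gene Eif4e2, its partners Gigyf1 and Gigyf2, and Eif4enif1, 0 were called at 30 min by edgeR, DESeq2 or limma-voom, while 2 had an unadjusted p under 0.05. Of all genes 4.84% were called higher and 3.35% lower by edgeR at 30 min. At 60 min Gigyf1 (-0.15, adjusted p = 0.0469) and Eif4enif1 (-0.11, adjusted p = 0.0369) were called lower by edgeR, 50% of the list beside 11.7% of all genes. Counts in a list of 4 are not read as a result about it. DESeq2 called 0 of the list, and 11 and 8 alternatives ended the calls of Gigyf1 and Eif4enif1 (adjusted p up to 0.206 and 0.152). Single libraries did so for Gigyf1 in 7 of 9 cases (all but 0 min replicate 2 and 60 min replicate 1) and for Eif4enif1 in 5 (replicates 1 and 2 of 0 min, 2 of 30 min, and 1 and 2 of 60 min). From 30 to 60 min Gigyf1 was lower (-0.22, adjusted p = 0.00914) and Eif4e2 higher (0.12, adjusted p = 0.0274). Each is 25% of the list, beside 7.65% lower and 8.87% higher over all genes. The call of Eif4e2 was ended by total-count scaling and without replicate 2 or 3 of 30 min or 1 or 2 of 60 min (adjusted p up to 0.125).

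AU-rich element binding proteins of other families, which compete or act beside TTP, had calls for 1 of 12, lower, at 30 min (8.33%, beside 3.35% of all genes lower) and for 1 in each direction at 60 min (8.33% each, beside 13.3% higher and 11.7% lower). Counts this small are not read as a result about the list. Elavl1 (HuR), which stabilizes AU-rich mRNAs, went from 150 to 159 and 162 CPM (0.08 and 0.11, adjusted p = 0.239 and 0.0641). Tia1, a translational repressor, was the member called lower at both times, with -0.26 (adjusted p = 0.0143) and -0.19 (adjusted p = 0.0324). Its call at 30 min was lost when replicate 2 or 3 of 0 min or replicate 2 of 30 min was left out (adjusted p 0.06 to 0.0651), and 6 alternatives ended that at 60 min, among them leaving out replicate 2 or 3 of 0 min or of 60 min (adjusted p up to 0.124). Hnrnpa0 was the one called higher at 60 min (0.20, adjusted p = 0.0485), and 12 of 17 alternatives ended this call, among them leaving out any library other than 0 min replicate 2 and 60 min replicate 3 (adjusted p up to 0.205). The list medians were -0.01 and 0.04.

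A list of 20 genes held kinases, phosphatases and 14-3-3 adaptors that act on the TTP protein or in the p38 pathway. Of these, 3 were called at 30 min and 6 at 60 min, each of them higher. That is 15% and 30% of the list beside 4.84% and 13.3% of all genes. The list medians were 0.04 and 0.05. Dusp1, which switches p38 off, rose most, from 6.02 to 111 and 100 CPM (4.21 and 4.06, adjusted p = 1.83e-11 and 7.1e-12). Map2k3, which activates p38, rose from 56.9 to 66.6 and 84.2 CPM (0.23 and 0.57, adjusted p = 0.00126 and 3.37e-08). Mapkapk2, the kinase that phosphorylates TTP, rose from 207 ± 7.63 to 231 ± 3.49 and 287 ± 1.97 CPM (SD, n = 3), with log2 changes of 0.16 and 0.47 (adjusted p = 0.00879 and 1.02e-07). The other calls at 60 min were Mapkapk3 (0.23) and the catalytic subunit genes of the phosphatase PP2A, Ppp2ca (0.16) and Ppp2cb (0.14). Ppp2cb was lost in 7 alternatives, among them without replicate 1 or 3 of 0 min or of 60 min (adjusted p up to 0.24), and Ppp2ca with total counts as the only scaling (adjusted p = 0.0692). Mapk14, the p38α gene, went from 113 to 118 and 109 CPM and was not called against 0 min (0.06 and -0.04, adjusted p = 0.3 and 0.389). From 30 to 60 min Map2k3 (0.34) and Mapkapk2 (0.31) rose further, and Mapk14 was called lower (-0.11, adjusted p = 0.0428). That last call was ended by 11 alternatives, among them leaving out any library other than 0 min replicate 2 and 60 min replicate 2 (adjusted p up to 0.179).

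Other regulators of mRNA decay in macrophages were mostly called higher against 0 min. Of 10 genes, 7 were called at 30 min and 7 at 60 min, each of them higher, against 4.84% and 13.3% of all genes higher, with list medians of 0.21 and 0.88. From 30 to 60 min 4 were higher (40%, beside 8.87% of all genes) and 2 lower (20%, beside 7.65%). The lower ones were Tob1 (-0.25, edgeR adjusted p = 0.0216) and Tob2 (-0.11, adjusted p = 0.0325), and 4 and 8 alternatives ended their calls. Btg2 rose from 5.79 to 68.2 and 60.2 CPM (3.55 and 3.37, adjusted p = 2.08e-11 and 1.44e-11). Zc3h12a (Regnase-1), an endonuclease that cuts stem loops in 3′ UTRs, rose from 10.0 to 25.0 and 60.7 CPM (1.32 and 2.6), and went on rising where Zfp36 fell (1.28 from 30 to 60 min, adjusted p = 5e-08). Its paralog Zc3h12c rose from 30.8 to 97.5 CPM at 60 min (1.66, adjusted p = 3.24e-11), and its call at 30 min (0.22, adjusted p = 0.0297) was ended by 7 alternatives, among them leaving out any library of 0 min or replicate 1 or 3 of 30 min (adjusted p up to 0.135). Arid5a, which protects stem-loop mRNAs, rose by 1.34 and 1.58 (adjusted p = 4.7e-07 and 2.25e-08). N4bp1, an RNA-binding nuclease, had 0.17 at 30 min (adjusted p = 0.0729) and rose by 1.01 at 60 min (adjusted p = 3.49e-09). Btg1 (0.53 and 0.74) and Rc3h1 (0.15 and 0.23), which encodes Roquin-1, were called higher at both times, and Tob2 at 30 min (0.20). Without 30 min replicate 1 the call of Rc3h1 at 30 min was lost (adjusted p = 0.0521).

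mRNAs known as targets of the family rose at the same times as Zfp36. Of 25 listed, 24 passed the filter, and 22 of these were called at 30 min and 22 at 60 min, each of them higher. That is 91.7% of those tested at each time, beside 4.84% and 13.3% of all genes higher. With 1 library left out at a time, 20 to 21 were called higher at 30 min and 22 at 60 min. Dusp1 is counted here and among the kinases and phosphatases above, so these lists are not separate. The target list holds many mRNAs that are inducible in macrophages. It was chosen with results of these data known, so its direction is not independent evidence. The list medians were 2.41 at 30 min and 3.34 at 60 min. Genes that pass the filter only through the libraries with LPS had to differ, so these counts and medians are a description. Those genes were Cxcl2, Il1b, Il6, Il10, Il23a, Csf2, Nos2 and Myc, with 0 to 33 counts summed over the 0 min libraries. Their calls and p-values are a description as well. From 30 to 60 min 14 were called higher (58.3%, beside 8.87% of all genes), with a median of 0.53 over the list. The 1 called lower (4.17%, beside 7.65%) was Fos (-1.79, edgeR adjusted p = 8.41e-08). Leaving out 1 library at a time gave 11 to 15 called higher. The calls of Csf2, Il10 and Ptgs2 in this interval were ended by 6, 5 and 2 alternatives. In that interval Zfp36 itself fell by 0.67.

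Tnf, the cytokine gene for which TTP is best known, stood at 52.2, 46.5 and 43.8 CPM at 0 min, at 446, 279 and 298 CPM at 30 min and at 516, 582 and 581 CPM at 60 min. The times did not overlap, and 30 min replicate 1 stood above the other 30 min libraries for Tnf as it did for Zfp36. The log2 changes of Tnf were 2.85 ± 0.14 and 3.56 ± 0.15 (SE; adjusted p = 5.89e-09 and 2.92e-10), and it rose by 0.71 from 30 to 60 min (adjusted p = 0.00134). The chemokine gene Cxcl2 went from 0.371 to 145 and 260 CPM (8.60 and 9.44), and the cytokine gene Il1b from 0.253 to 43.4 and 109 CPM (7.39 and 8.71). Both had few counts at 0 min, 32 for Cxcl2 and 22 for Il1b over its libraries. Il1a went from 1.81 to 16 and 86.7 CPM (3.13 and 5.57), and it went on rising after 30 min (2.44, adjusted p = 6.33e-06). At 30 min replicate 1 stood at 26.8 CPM and the others at 9.71 and 11.3. Without it the 30 min mean of Il1a was 10.5 CPM, its log2 change at 30 min 2.52 and that from 30 to 60 min 3.04. Ptgs2, which encodes the prostaglandin enzyme COX-2, rose by 3.45 and 3.94, the kinase gene Pim1 by 2.47 and 3.56, and Plk2 by 2.36 and 3.05. Ier3, an early response gene, rose by 3.58 at 30 min and then held (3.49 at 60 min, -0.10 between the times, adjusted p = 0.579).

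Several cytokine targets had few counts. Il6 had 3 counts summed over the 0 min libraries, 151 at 30 min and 219 at 60 min, a ratio of depth-scaled counts of 50.2 at 30 min with a 95% interval of 16.9 to 246 for counting error only. Without 0 min replicate 3 its fitted log2 change went from 5.51 to 6.32 at 30 min and from 6.01 to 6.81 at 60 min. Il10 had 9, 134 and 244 counts, with a ratio of 14.9 at 30 min (7.59 to 33.2). Myc had 0 counts at 0 min, then 22 and 49, and was at least 7.32-fold and 15.4-fold higher against a floor of 3 counts over the 0 min group. Csf2 had 8, 31 and 77 counts and Nos2 12, 39 and 141, and their calls at 30 min were ended by 11 and 6 alternatives (adjusted p up to 0.207 and 0.131). For Csf2 leaving out any library but 30 min replicate 2 did so, and for Nos2 any library of 0 min or replicate 1 or 2 of 30 min. Cxcl1 had 0, 8 and 3 counts and was not tested. Bcl2 (-0.05 and -0.13) and Notch1 (0.05 and 0.03) were the tested members not called, at adjusted p of at least 0.243.

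**Figure D4:**
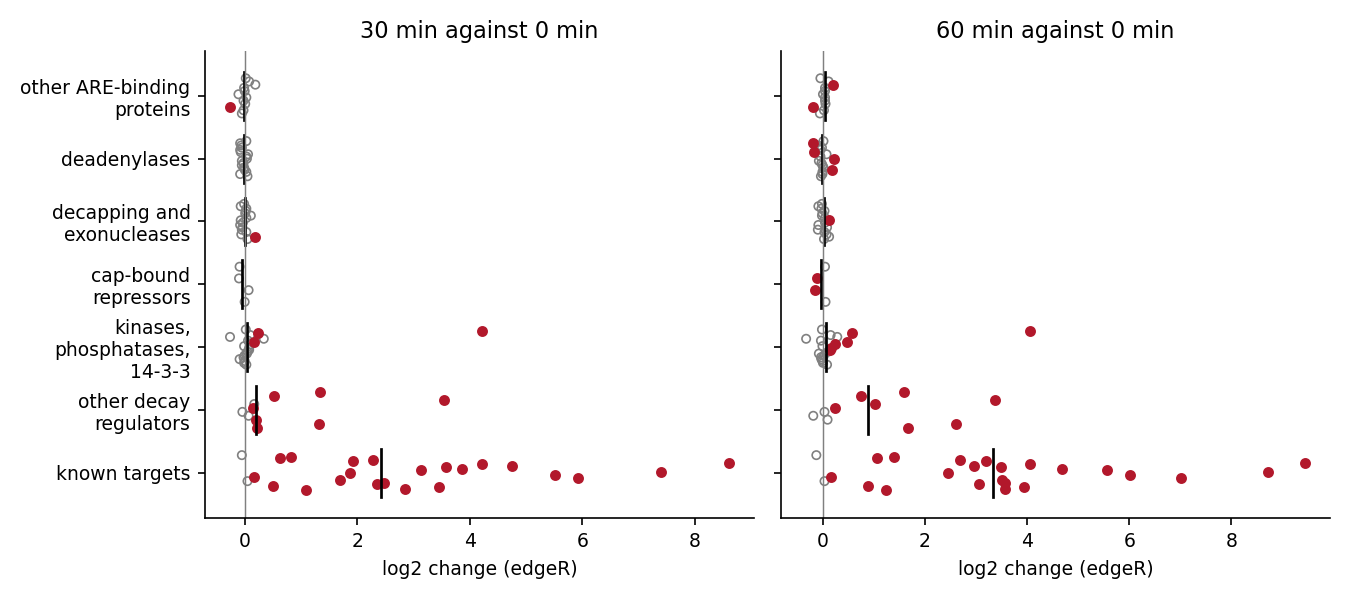
Log2 change of the tested genes of the 7 lists at 30 min (left) and 60 min (right) against 0 min; points are genes, filled red where called by edgeR at an adjusted p under 0.05, with vertical offsets only to separate them, and black bars are list medians. The lists of decay enzymes and cap-bound repressors crowd at 0, while the targets spread up to 8.60 and 9.44 (Cxcl2).

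Genes with the family's binding motif in the 3′ UTR were also counted without any list. The 11214 protein-coding genes tested with a 3′ UTR, the 3 members left out, were grouped by copies of the nonamer shown above: 10230 held 0, 860 held 1 and 124 held 2 or more. At 30 min 4.55%, 6.05% and 13.7% of these groups were called higher, beside 4.76% over all of them, and 2.27%, 2.67% and 4.84% lower, beside 2.33%. At 60 min 13.1%, 18.6% and 29.0% were higher, beside 13.7% over all of them, and 11%, 14.1% and 15.3% lower, beside 11.3%. From 30 to 60 min the shares were 8.11%, 10.3% and 21% higher, beside 8.43%, and 7.07%, 8.6% and 11.3% lower, beside 7.23%. The genes called lower in the group with 2 or more copies were few, 6, 19 and 14 of 124 in these comparisons. With more copies of the nonamer the shares called were larger in either direction, and no test was made of them. Each group holds genes that passed the filter only through the libraries with LPS, such as Il6 (0 copies), Il23a (1) and Cxcl2 (3). Such genes had to differ, so the shares are a description. The median log2 changes stayed near 0 in each group, at 0.01, 0.01 and 0.03 at 30 min and 0.00, 0.01 and 0.03 at 60 min, and most genes with the motif were not called. The groups also differed in 3′ UTR length, with medians of 1066, 2253 and 3181 bases, and its part in the shares was not tested.

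Without the listed targets 118 genes with 2 or more nonamers remained, of which 10.2%, 26.3% and 18.6% were higher in the 3 comparisons. Over all genes counted without the targets the shares higher were 4.58%, 13.5% and 8.32%. With the heptamer in place of the nonamer, 1134 genes held 2 or more copies, and 9.08%, 22.5% and 13.7% were higher. The shares higher were 3.9%, 11.5% and 7.11% with 0 heptamers and 5.52%, 16.5% and 10.2% with 1. Over all genes counted they were 4.76%, 13.7% and 8.43%. The shares called lower did not rise steadily with copies of the heptamer at 30 min or from 30 to 60 min, and differed by little at 60 min: for 0, 1 and 2 or more copies they were 2.2%, 2.67% and 2.47% at 30 min, 11.2%, 11.5% and 11.6% at 60 min, and 6.78%, 8.28% and 8.11% from 30 to 60 min. Of the 24 tested targets 13 held a nonamer (54.2%) and 6 held at least 2. Cxcl2 and Tnf held 3 copies, and Csf2, Dusp1, Plk3 and Bcl2 held 2. Ptgs2, Plk2, Pim1, Fos, Il23a, Vegfa and Notch1 held 1. Il1a, Il1b, Il6, Il10 and Ier3 were among those with 0 of this exact sequence. Bcl2 and Notch1, which hold the nonamer, were the tested targets not called against 0 min.

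**Figure D5:**
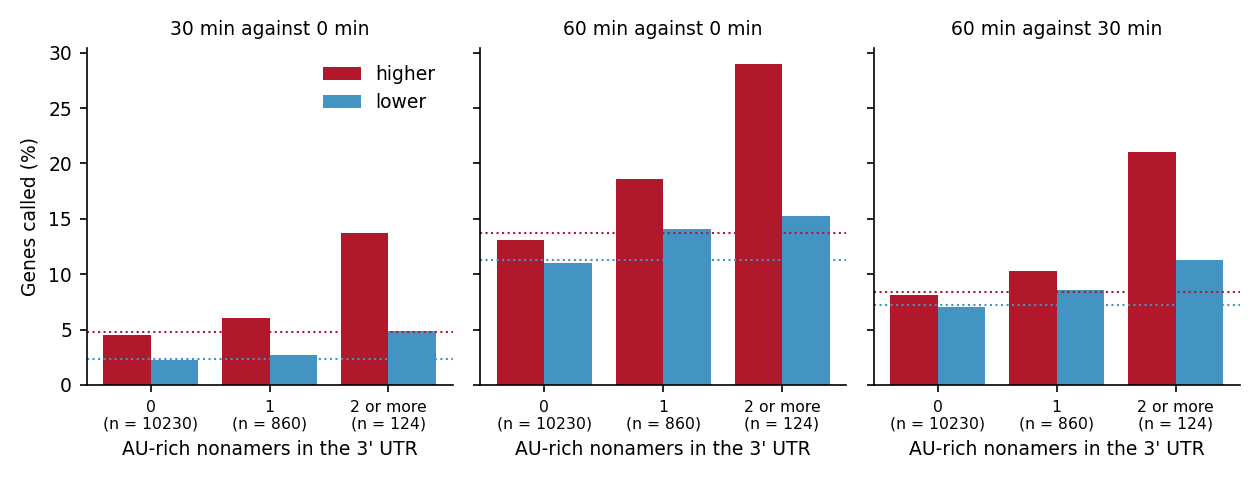
Percent of genes called higher (red) and lower (blue) by edgeR, by number of AU-rich nonamers in the 3′ UTR, in the 3 comparisons; dotted lines give the share over all genes counted, and n is the number of genes. The red bar of the group with 2 or more copies reaches 13.7%, 29.0% and 21%. The groups differ in 3′ UTR length as well.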

How the data were processed

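RNA of 9 libraries of IMM cells was analysed from the authors' deposited table of expected counts per gene (RSEM), not normalized. The submitters' processing notes name build mm10 and the tools STAR 2.7.0f and RSEM 1.3.1 beside bcl2fastq 2.20, Picard 2.18.26, cutadapt 1.18 and DESeq2. Neither settings nor annotation was given in the sources used here. The authors' deposited DESeq2 tables hold log2 fold changes and p-values, per the file headers. Between 5.04% and 5.32% of a library's values were not whole, and all were rounded. No library was a copy of another (mean chi-square per gene 5.02 to 18.6 between replicates of a time).

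The 55450 identifiers matched GENCODE M21. All 9 libraries entered 1 quasi-likelihood fit (edgeR 4.0.16, R 4.3.3) with time as the only term, TMM scaling and filterByExpr (minimum count 10). Tests were two-sided, Benjamini-Hochberg adjusted over 14246 genes, and called at 0.05; the fit was tested on simulated data. SEs were worked out as log2 change divided by the root of F. Ratios of members were tested by exact permutation. Alternatives were other scalings (DESeq2 size factors, total counts), DESeq2 1.42.0, limma-voom (limma 3.58.1), other filters, only the times compared, the replicate number as a term, and each library left out.

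Members and lists were chosen with earlier results of these data known. Named were the members, the 5 genes most correlated with each, overlapping and neighbouring genes, and from each list the called genes changed at least 2-fold, or else the largest called change (at most 4 per comparison, 12 for targets), with Elavl1, Cnot1, Mapk14 and Mapkapk2. Other list genes were named after their values were seen, because few were called.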

Additional observations from a re-analysis of the deposited data

Results flagged for a closer look

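Zfp36 differed between its changes at the later and the earlier time. Against 0 min its log2 change was 3.30 at 30 min and 2.63 at 60 min, and the test of the difference gave -0.67 (edgeR, adjusted p = 0.000414), lower in 3 of 3 libraries at 60 min than in any at 30 min. Leaving out 1 library at a time moved it between -0.77 and -0.53, and each time it passed. The same difference did not pass for Zfp36l1 (adjusted p = 0.51) or Zfp36l2 (adjusted p = 0.927).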

How the results depend on the processing

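Zfp36 was called in the same direction in all 3 comparisons under each of the 17 alternatives. The smaller changes depended on the setting. Scaled by total counts alone, 3048 genes were lower at 60 than at 0 min and 1672 lower at 60 than at 30 min, the share of calls that were higher went from 53.1% to 30.1% and from 53.7% to 37.5% (at 30 against 0 min from 59.1% to 45.9%), Zfp36l2 changed by 0.043 at 60 min (adjusted p = 0.39), and its 30 to 60 min change turned to -0.035 (adjusted p = 0.565). With no filter on low counts, 757 genes were lower at 30 min. Zfp36l1 at 60 min then passed (0.17, adjusted p = 0.00258), as it did by DESeq2 (0.17, adjusted p = 0.0456). With only the 2 times compared in the fit, Zfp36l2 at 60 min no longer passed (0.11, adjusted p = 0.0718).

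No pairing by replicate number was visible: deviations of same-numbered libraries had correlations of -0.064 to 0.006. The highest correlation of a library with one of another number was -0.001 to 0.101. Whether same-numbered libraries shared a culture or day is not given, and these values cannot tell. With the replicate block Zfp36l1 at 60 min passed (0.17, adjusted p = 0.0395), counts of calls moved by less than 1.5 times (588 higher and 379 lower at 30 min), and the calls of the other members did not change.

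Leaving out each library in turn gave 290 to 523 genes lower at 30 min. Ranges of log2 changes were 0.187 to 0.302 for Zfp36l1 and 0.083 to 0.136 for Zfp36l2 at 30 min, 0.115 to 0.230 and 0.085 to 0.143 at 60 min, and -0.019 to 0.027 for Zfp36l2 from 30 to 60 min. With longest transcript lengths, the shares of Zfp36 were 15.4%, 61.9% and 50.5% at 0, 30 and 60 min. With the heptamer, 13.7% of genes with 2 or more copies were higher from 30 to 60 min, beside 8.43% over all genes counted. The causes were not tested. With at least 1389 counts of each member in every library, depth does not limit the members, but it limits Il6, Csf2, Nos2, Myc and Cxcl1.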
